A study of Rattus norvegicus with 12 samples.

Results

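The enzymes of fatty acid oxidation and of acetyl-CoA supply were followed in the ventral dentate gyrus, a part of the hippocampus tied to mood and stress. The set holds 37 genes named by symbol, chosen for their place in the pathway with earlier results of these data known. All 37 were among the 17172 genes of the count files. The low-count filter kept 36 of them and 11750 genes in all, and the gene it removed was Echs1. The 4 groups came from male rats whose strain is labelled Sprague-Dawley and had 3 libraries each. LAC responders and LAC non-responders were Flinders Sensitive Line (FSL) rats that drank 0.3% (w/v) L-acetyl-carnitine (LAC) in tap water over 7 days, or about 210 mg/kg body weight daily. FSL vehicle and Flinders Resistant Line (FRL) vehicle rats drank tap water. The FSL was bred selectively and serves to model depression, with the FRL as its paired line. Every FSL group therefore differs from FRL vehicle by line, and no FRL group given LAC was analysed here. Libraries of 1 group are labelled as biological replicates. The sources used here give neither the number of animals behind a library, nor their ages, nor the criterion that made a rat a responder. If the libraries do not come from separate animals, the p-values measure only the spread between these libraries.

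Fatty acid oxidation takes place in mitochondria and peroxisomes. Acyl-CoA synthetases activate a fatty acid, carnitine carries it into the matrix, and repeated rounds of dehydrogenation, hydration, dehydrogenation and thiolysis release acetyl-CoA. Acetyl-CoA feeds the citrate cycle there, while in the cytosol and nucleus it is made from citrate or acetate and serves lipid synthesis and histone acetylation. The brain oxidises fatty acids mainly in astrocytes and burns ketone bodies in neurons. LAC is an acetylated carrier that can bring both carnitine and an acetyl group into this network.

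Counts in genes summed to 5905387 to 8137618 a library. Levels are in CPM, counts scaled to a common library total, with library sizes adjusted by TMM, a factor that offsets differences in library composition. Astrocyte markers were even, at a mean of 8.18 to 8.41 log2 CPM in all 12 libraries, with 0 of 10 markers at 0 counts. Meningeal and fibroblast markers were not. The mean of the 14 markers was 2.01 to 3.55 log2 CPM in LAC responders, 3.21 to 4.53 in non-responders, 3.16 to 6.34 in FSL vehicle and 2.42 to 3.65 in FRL vehicle. Their summed level was 107 to 314 CPM in LAC responders, 565 to 762 CPM in non-responders, 366 to 3342 CPM in FSL vehicle and 186 to 443 CPM in FRL vehicle, and FSL vehicle 3 was the highest library. Col1a2 and Ogn, both defining genes of this list, had 0 counts in some libraries, and at least 1 of them had 0 counts in each of the 12. That held for FSL vehicle 3 too, and whether it came from the counting was not tested. Choroid plexus markers were highest in non-responder 1 and FSL vehicle 1, at 6.51 and 5.91 log2 CPM, against 3.63 in FSL vehicle 3 and at most 1.71 in each other library. Otx2, Folr1 and Sostdc1 of that list had 0 counts in some libraries. In each of the 12 at least 1 of these genes was at 0, also in non-responder 1 and FSL vehicle 1. The 7 granule neuron markers found in the files were lowest in responder 1 and FRL vehicle 2, at 2.58 and 2.98 log2 CPM. The other libraries had 3.54 to 3.99. Prox1 of that list had 9.19 CPM in responder 1 and 10.4 CPM in FRL vehicle 2, against 51.6 to 129 CPM elsewhere. The thalamus marker Tcf7l2 had 156 CPM in responder 1 and 6.67 to 20.45 CPM elsewhere. The 7 thalamus markers found summed to 471 CPM in responder 1 and to at most 204 CPM elsewhere. Their mean log2 CPM was 4.06 in responder 1 and reached 4.20 in FSL vehicle. Whether responder 1 held tissue beyond the dentate gyrus was not tested. Oligodendrocyte markers averaged 7.94 to 8.82 log2 CPM in LAC responders, 8.25 to 8.91 in non-responders, 7.41 to 7.998 in FSL vehicle and 7.80 to 8.35 in FRL vehicle. Fewer cells of a type and less RNA per cell cannot be told apart in such tissue samples.

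The DNA just before the start sites is shown for 4 of the genes whose levels set the groups apart most, a choice made after their values were seen. Acly, Acss2 and Acat2 supply acetyl-CoA or use it in the cytosol, and Hadh belongs to matrix oxidation. RefSeq sequences of the assembly GRCr8 were found for 32 of the 37 genes, and the 250 bases before the start are printed 5′ to 3′ on the strand of the gene. They lie at chr10:85963632-85963881 (- strand) for Acly, chr3:164464453-164464702 (+ strand) for Acss2, chr1:50100590-50100839 (+ strand) for Acat2 and chr2:222504447-222504696 (- strand) for Hadh. Capitals mark the GC box GGGCGG and the CCAAT box CCAAT, read on both strands.

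Acly: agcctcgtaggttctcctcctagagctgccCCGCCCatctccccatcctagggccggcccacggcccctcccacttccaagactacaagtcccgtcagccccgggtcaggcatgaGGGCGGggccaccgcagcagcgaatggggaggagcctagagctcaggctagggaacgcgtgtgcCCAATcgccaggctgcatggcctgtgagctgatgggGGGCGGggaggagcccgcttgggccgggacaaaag
Acss2: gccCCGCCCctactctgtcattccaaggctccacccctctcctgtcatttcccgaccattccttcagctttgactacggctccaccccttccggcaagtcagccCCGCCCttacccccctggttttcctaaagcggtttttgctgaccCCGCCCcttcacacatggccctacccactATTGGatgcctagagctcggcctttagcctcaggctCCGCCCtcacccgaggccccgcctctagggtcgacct
Acat2: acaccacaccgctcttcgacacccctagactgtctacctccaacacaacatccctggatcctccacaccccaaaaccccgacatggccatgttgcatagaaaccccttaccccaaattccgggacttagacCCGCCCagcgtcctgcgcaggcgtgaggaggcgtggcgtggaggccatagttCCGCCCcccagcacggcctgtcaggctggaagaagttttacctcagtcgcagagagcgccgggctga
Hadh: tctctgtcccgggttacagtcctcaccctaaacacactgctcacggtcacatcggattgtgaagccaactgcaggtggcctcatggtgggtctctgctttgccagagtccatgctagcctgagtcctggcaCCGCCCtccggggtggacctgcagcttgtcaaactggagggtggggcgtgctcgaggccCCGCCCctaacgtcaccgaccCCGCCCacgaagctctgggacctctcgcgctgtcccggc

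All 4 stretches hold more than 1 GC box, and those of Acly and Acss2 also hold a CCAAT box. Acox3 and Eci1, not shown, had a smaller p than all 4 genes shown in the test of any difference among the 4 groups below. Acadvl, also not shown, had a smaller p than Hadh in that test. Eci1 held a GC box, and Acox3 and Acadvl did not. Over the 32 genes, 24 held a GC box (75%), against 30.5% of the 33469 stretches of the same length in the table. Those stretches were not limited to protein-coding or expressed genes, and a gene could hold several. The 32 genes are protein-coding with 1 stretch each, so the shares compare unlike sets. A CCAAT box stood in 12 (37.5%), against 34% of all stretches. The TATA box TATAAA stood in 2 (6.25%), Acsl5 and Echs1, against 12.9%. The median GC content was 61% in these genes and 51.2% over all stretches. The sterol regulatory element TCACCCCAC, the E-box CACGTG, the ERR site TCAAGGTCA and the PPAR site of the DR1 kind were in 0 of the 32, and are in 0.409%, 5.59%, 0.388% and 0.0508% of all stretches. The NRF1 site stood in 1 stretch, that of Ppara, and in 0.762% of all stretches. A match or its absence describes these letters in this window only.

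None of the 36 enzymes passed the test in any comparison. The test was edgeR's quasi-likelihood test over all 11750 genes, with Benjamini-Hochberg adjustment and a threshold of 0.05. Over all genes, 0% passed in LAC responders against FSL vehicle, in LAC non-responders against FSL vehicle and in responders against non-responders. In FSL vehicle against FRL vehicle 0.0681% passed. When the 9 libraries of the FSL line were pooled against FRL vehicle, 0.162% passed. A test for any difference among the 4 groups called 0 of the 36 enzymes and 0.0255% of all genes. The same counts were 0 with limma-voom throughout. DESeq2 called 1 enzyme gene, Acly in FSL vehicle against FRL vehicle (log2 fold change -0.27, adjusted p = 0.0465), and 0 elsewhere. Over all genes DESeq2 called 168 in that comparison and 181 in LAC responders against FSL vehicle.

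Enzymes with an unadjusted p under 0.05 numbered 6 in LAC responders against FSL vehicle, where 13.8% of all genes had one, 1 in non-responders against FSL vehicle (4.21%) and 2 in responders against non-responders (3.14%). They numbered 11 in FSL vehicle against FRL vehicle (13.9%), 6 in the 9 FSL-line libraries against FRL vehicle (6.66%) and 7 in the test of any difference (9.02%). Groups did not overlap for 5 enzymes in LAC responders against FSL vehicle (12.5% of all genes), for 4 in non-responders against FSL vehicle (7.8%) and for 6 in responders against non-responders (11.3%). They did not overlap for 10 in FSL vehicle against FRL vehicle (13.8%) and for 2 in the 9 FSL-line libraries against FRL vehicle (1.94%). As shares of the 36, the 10 in FSL vehicle against FRL vehicle were 27.8% and the 6 in responders against non-responders were 16.7%.

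**Figure D1:**
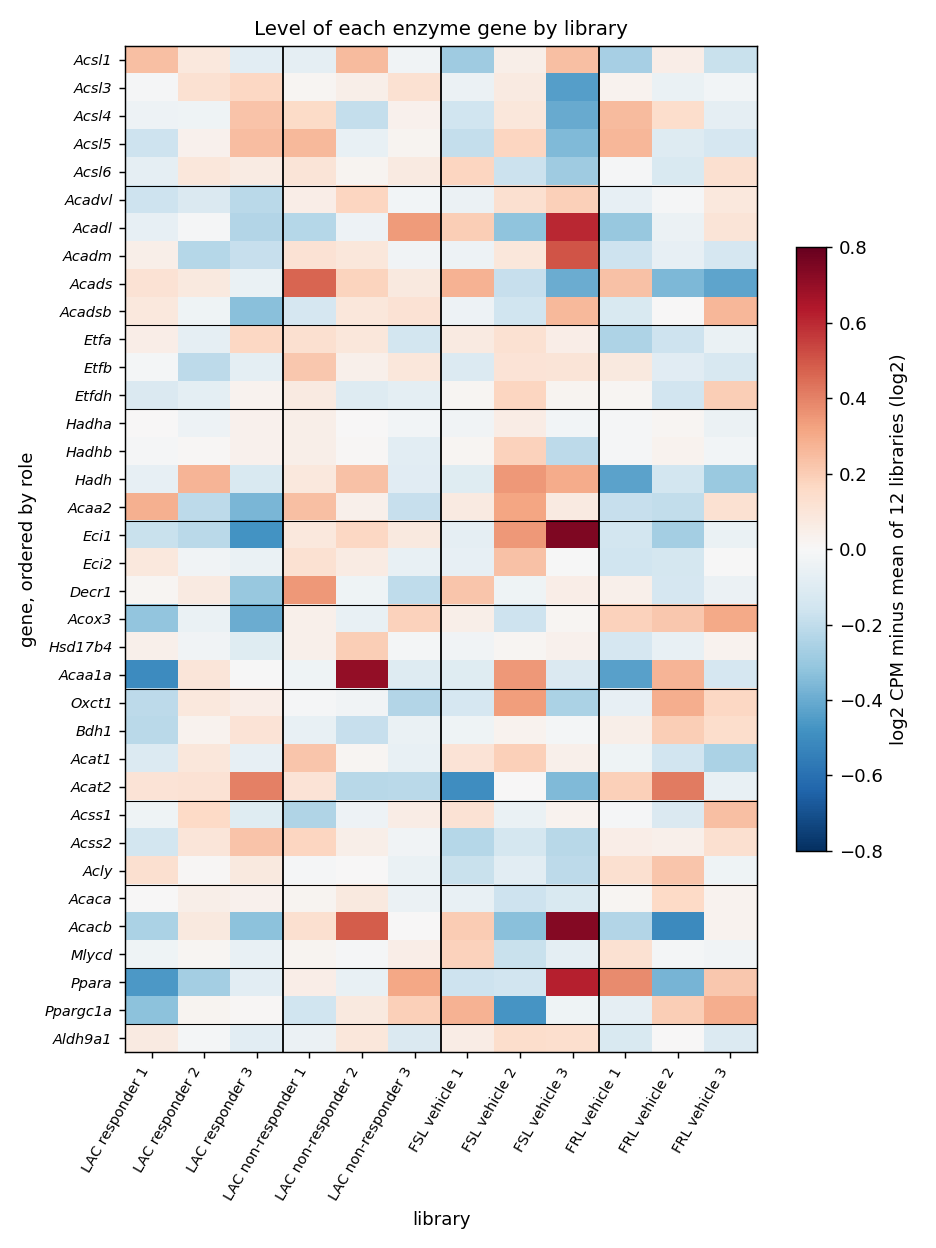
Level of each of the 36 tested enzyme genes (rows, ordered by role) in each of the 12 libraries (columns), as log2 CPM minus that gene's mean over the 12 libraries. Red is above and blue below that mean. Most cells are pale, Hadha is nearly white in every library, and FSL vehicle 3 is dark red for Eci1, Acadl, Acadm, Acacb and Ppara.

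The enzymes varied little. From the lowest to the highest of the 12 libraries the median enzyme spanned 1.47-fold, against 1.56-fold for the median of all genes, and 32 of the 36 (88.9%) stayed under 2-fold, against 70.3% of all genes. Among the 10555 genes within the CPM range of the enzymes the median was 1.53-fold and 74.6% stayed under 2-fold. The 4 exceptions were Acacb at 2.37-fold, Eci1 at 2.34-fold, Acaa1a at 2.31-fold and Ppara at 2.11-fold. The 95% interval of the log2 fold change had a median half-width of 0.25 in each comparison of 2 groups. It lay wholly within 1.5-fold either way for 27 of the 36 in LAC responders against FSL vehicle, for 30 in non-responders against FSL vehicle, for 29 in responders against non-responders and for 26 in FSL vehicle against FRL vehicle. Within 2-fold lay 35, 36, 35 and 35, the exceptions being Eci1, Acaa1a and Acacb in the comparisons with 35. The summed level of the enzymes was 3422 ± 104 CPM in LAC responders, 3422 ± 78.0 CPM in non-responders, 3286 ± 206 CPM in FSL vehicle and 3453 ± 52.9 CPM in FRL vehicle (SD, n = 3 each).

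Acly and Acss2, which make acetyl-CoA outside the matrix, were on average lowest in FSL vehicle. Acly cleaves citrate to acetyl-CoA in the cytosol. Acly had 381, 351 and 369 CPM in responder libraries 1 to 3, 347, 349 and 337 CPM in non-responder, 308, 329.6 and 302 CPM in FSL vehicle and 382, 407 and 340.2 CPM in FRL vehicle libraries. The FSL vehicle libraries lay below all 9 others. Against FSL vehicle, the log2 fold change of Acly was 0.23 ± 0.08 (SE) in LAC responders and 0.14 ± 0.08 in non-responders, with edgeR adjusted p of 0.279 and 0.976. In FSL vehicle against FRL vehicle it was -0.27 ± 0.08 (edgeR adjusted p = 0.251). These comparisons share the 3 FSL vehicle libraries, so they are not independent of each other. Responders also lay above non-responders without overlap for Acly, by 0.09 ± 0.08 on the log2 scale (adjusted p = 0.992).

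Acss2 makes acetyl-CoA from acetate in the cytosol and nucleus, where it supplies histone acetylation in neurons. Acss2 had 80.0, 94.8 and 104 CPM in responder libraries 1 to 3, 99.9, 91.5 and 87.1 CPM in non-responder, 75.6, 80.5 and 75.9 CPM in FSL vehicle and 91.9, 91.3 and 96.8 CPM in FRL vehicle libraries. The non-responder and FRL vehicle libraries lay above all FSL vehicle libraries, while responder 1, at 80.0 CPM, was within the range of FSL vehicle. The log2 fold change against FSL vehicle was 0.26 ± 0.10 in LAC responders (edgeR adjusted p = 0.286) and 0.26 ± 0.10 in non-responders (adjusted p = 0.976). Without responder 3 the value for responders was 0.16, and without responder 1 it was 0.36. In FSL vehicle against FRL vehicle it was -0.27 ± 0.10 (adjusted p = 0.273). Acss2 was the enzyme of smallest p in non-responders against FSL vehicle.

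Acss1 does the same reaction from acetate inside mitochondria. Acss1 had 82.8, 94.9 and 79.5 CPM in responder libraries 1 to 3, 71.9, 82.4 and 88.3 CPM in non-responder, 91.9, 81.8 and 86.8 CPM in FSL vehicle and 84.3, 78.4 and 100.2 CPM in FRL vehicle libraries. All groups overlapped, and the log2 fold changes were -0.02 ± 0.11 in LAC responders and -0.10 ± 0.11 in non-responders against FSL vehicle. Whether Acss1 and Acss2 differed in response was not tested. Acly, Acss2 and Acss1 together summed to 540.3 to 552 CPM in LAC responders, 512 to 523 CPM in non-responders, 465 to 492 CPM in FSL vehicle and 537 to 577 CPM in FRL vehicle, Acly making up most of the sum. Markers of other cells were also low in FSL vehicle. All 10 oligodendrocyte markers had positive log2 fold changes against FSL vehicle in LAC responders (median 0.65) and in non-responders (median 0.79), and 1 of 10 was positive in FSL vehicle against FRL vehicle (median -0.32). The 8 GABAergic interneuron markers averaged 5.14 to 5.34 log2 CPM in LAC responders, 5.04 to 5.11 in non-responders, 4.72 to 4.94 in FSL vehicle and 5.03 to 5.46 in FRL vehicle, with Npy at 0 counts in some libraries, so that FSL vehicle lay below all 9 others. Of the 7 tested, 7 were positive in LAC responders and 6 in non-responders against FSL vehicle (medians 0.36 and 0.17), and 0 in FSL vehicle against FRL vehicle (median -0.34). The part of either list in the values of Acly, Acss2 and Acaca was not tested.

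Acaca, the cytosolic acetyl-CoA carboxylase, turns acetyl-CoA into malonyl-CoA, which builds fatty acids and holds back their entry into mitochondria. Acaca had 225, 232 and 229.9 CPM in responder libraries 1 to 3, 227, 236 and 217 CPM in non-responder, 215, 200.1 and 206 CPM in FSL vehicle and 227, 251 and 228 CPM in FRL vehicle libraries. FSL vehicle again lay below all other libraries. Its log2 fold change was 0.15 ± 0.07 in LAC responders and 0.13 ± 0.07 in non-responders against FSL vehicle (edgeR adjusted p = 0.365 and 0.976), and -0.19 ± 0.07 in FSL vehicle against FRL vehicle (adjusted p = 0.276). Acacb, the mitochondrial carboxylase, averaged 11.3 ± 1.75 CPM in LAC responders, 14.6 ± 2.6 CPM in non-responders, 15.1 ± 5.49 CPM in FSL vehicle and 10.8 ± 1.99 CPM in FRL vehicle (SD, n = 3 each). FSL vehicle 3 was its highest library at 20.9 CPM and FRL vehicle 2 its lowest at 8.80 CPM. Mlycd, which degrades malonyl-CoA, stayed between 23.6 and 30.4 CPM in all libraries.

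**Figure D2:**
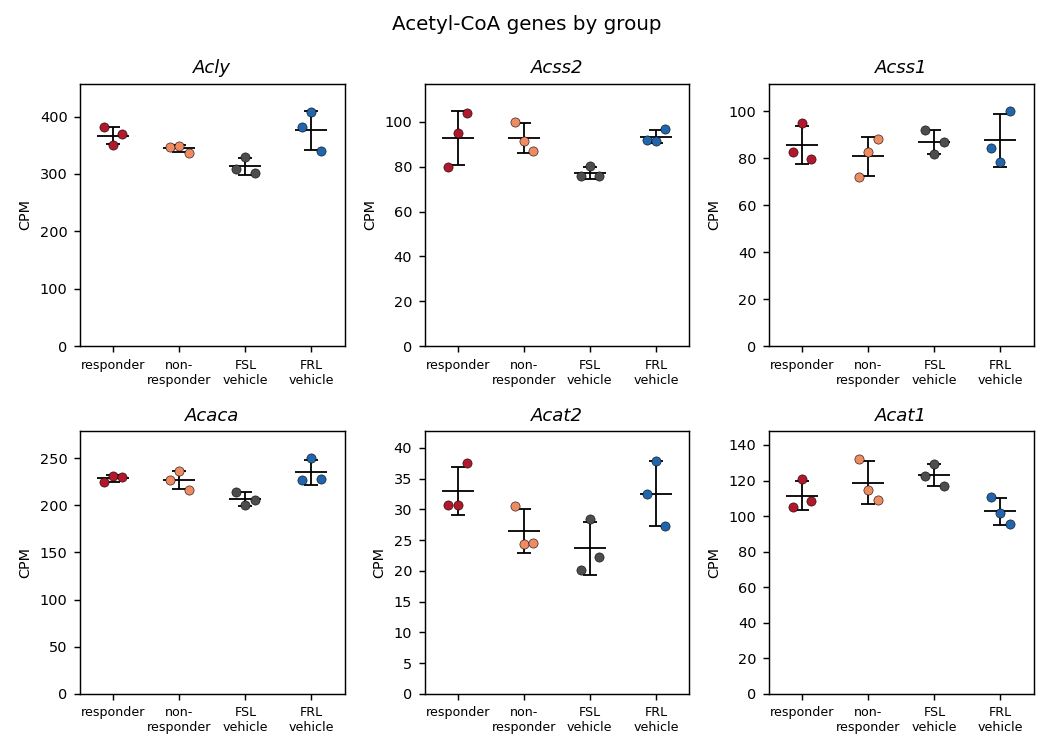
CPM of 6 genes that make or use acetyl-CoA by group, with 1 point a library, the group mean as a horizontal bar and its SD as whiskers (n = 3 each). The 3 FSL vehicle points of Acly and Acaca lie below every other point, those of Acss2 below the non-responder and FRL vehicle points, and Acss1 overlaps in all groups.

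The cytosolic and the mitochondrial acetoacetyl-CoA thiolase were both present. Acat2 joins acetyl-CoA molecules in the cytosol at the start of sterol synthesis. Acat2 had 30.6, 30.7 and 37.5 CPM in responder libraries 1 to 3, 30.6, 24.4 and 24.5 CPM in non-responder, 20.1, 28.5 and 22.3 CPM in FSL vehicle and 32.4, 37.9 and 27.3 CPM in FRL vehicle libraries. The responders lay above all FSL vehicle libraries and all non-responder libraries, by little for responder 1 and non-responder 1. Its log2 fold change was 0.48 ± 0.16 in LAC responders against FSL vehicle (edgeR adjusted p = 0.278), 0.16 ± 0.17 in non-responders against FSL vehicle (0.977) and -0.46 ± 0.16 in FSL vehicle against FRL vehicle (0.274). Leaving out 1 library moved the non-responder value to 0.043 (without non-responder 1) or 0.32 (without FSL vehicle 2). Near-identical copies of Acat2 stand in the rat annotation, and the deposited summary lines set reads of more than 1 alignment apart, so its level is uncertain. Acat1 is the matrix thiolase of ketone body use and of isoleucine breakdown. Acat1 had 105, 121 and 109 CPM in responder libraries 1 to 3, 132, 115 and 109 CPM in non-responder, 123, 129 and 117 CPM in FSL vehicle and 111, 102 and 95.4 CPM in FRL vehicle libraries. FSL vehicle lay above FRL vehicle without overlap, at 0.26 ± 0.09 on the log2 scale (adjusted p = 0.276), and the 9 FSL-line libraries averaged 0.20 ± 0.08 above FRL vehicle (adjusted p = 0.734).

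Ketone body enzymes overlapped between most groups. Oxct1 transfers CoA to acetoacetate and commits ketone bodies to oxidation. Oxct1 had 324, 397 and 388 CPM in responder libraries 1 to 3, 372, 368 and 319 CPM in non-responder, 342, 471 and 315 CPM in FSL vehicle and 358, 458 and 421 CPM in FRL vehicle libraries. FSL vehicle alone spanned both the lowest and the highest of the 12 values, and its log2 fold changes ran from -0.17 to 0.07 over the 5 comparisons. Bdh1 interconverts acetoacetate and 3-hydroxybutyrate. Bdh1 had 28.7, 33.8 and 35.8 CPM in responder libraries 1 to 3, 31.9, 29.3 and 32.1 CPM in non-responder, 32.5, 33.9 and 32.9 CPM in FSL vehicle and 34.4, 38.1 and 36.6 CPM in FRL vehicle libraries. Non-responders lay below FSL vehicle (-0.09 ± 0.09, edgeR adjusted p = 0.977), and FSL vehicle lay below FRL vehicle (-0.14 ± 0.09, adjusted p = 0.560), both without overlap and by small steps. The 9 FSL-line libraries differed from FRL vehicle by -0.17 ± 0.08 in Bdh1 (adjusted p = 0.742).

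The long-chain acyl-CoA synthetases Acsl1, Acsl3, Acsl4, Acsl5 and Acsl6 activate fatty acids for oxidation or for lipid synthesis. All 5 had a positive log2 fold change against FSL vehicle in LAC responders (median 0.15, range 0.07 to 0.22) and in non-responders (median 0.15, range 0.04 to 0.19), and 0 of the 5 passed the test. The median of all genes was 0.01 in responders. Without FSL vehicle 3, the lowest library for 4 of the 5, the medians were 0.08 in responders and 0.06 in non-responders. Acsl6, the form enriched in brain that channels docosahexaenoic acid into membranes, had 249, 279.8 and 275 CPM in responder libraries 1 to 3, 282, 266 and 276 CPM in non-responder, 296, 233 and 216 CPM in FSL vehicle and 261, 241 and 286 CPM in FRL vehicle libraries. FSL vehicle held both its lowest and its highest value. Acsl3 averaged 413 ± 25 CPM in LAC responders, 403 ± 15.2 CPM in non-responders, 355 ± 63.2 CPM in FSL vehicle and 383 ± 10.4 CPM in FRL vehicle (SD, n = 3 each). In RefSeq, Acsl5 overlaps Zdhhc6, and reads of overlapping genes cannot be told apart where the strand setting of the counting is not given.

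Acyl-CoA dehydrogenases carry out the first step of each round, each for its own chain length. Acadvl serves very long chains at the inner membrane. Acadvl had 55.7, 57.9 and 54.0 CPM in responder libraries 1 to 3, 64.9, 70.5 and 61.8 CPM in non-responder, 60.5, 68.5 and 71.5 CPM in FSL vehicle and 59.8, 62.3 and 66.4 CPM in FRL vehicle libraries. The responders lay below every other library. Its log2 fold change was -0.26 ± 0.09 in LAC responders against FSL vehicle (edgeR adjusted p = 0.275) and -0.23 ± 0.08 in responders against non-responders (adjusted p = 0.992), and was small in non-responders against FSL vehicle (-0.02 ± 0.08) and in FSL vehicle against FRL vehicle (0.09 ± 0.08). The value in LAC responders against FSL vehicle ranged from -0.32 to -0.21 when each library was left out in turn.

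Acadm, the medium-chain enzyme, had 33.6, 27.8 and 28.6 CPM in responder libraries 1 to 3, 35.2, 34.7 and 31.9 CPM in non-responder, 31.6, 34.7 and 46.2 CPM in FSL vehicle and 29.1, 31.1 and 29.6 CPM in FRL vehicle libraries. FSL vehicle 3 stood far above the other 11 libraries. Responders and FSL vehicle overlapped, and FSL vehicle lay above FRL vehicle without overlap. The log2 fold change was -0.32 ± 0.13 in LAC responders against FSL vehicle (edgeR adjusted p = 0.329) and 0.33 ± 0.13 in FSL vehicle against FRL vehicle (adjusted p = 0.310). Without FSL vehicle 3 these were -0.15 and 0.15, and with the meningeal marker mean as a covariate they were -0.03 and 0.08. The marker mean itself varied with group, so the covariate fit cannot tell markers and group apart. Acadl, for long chains, stood at 28.1 CPM in FSL vehicle 3 and at 14.8 to 23.5 CPM elsewhere. Acads, for short chains, ranged from 9.20 to 17.0 CPM, and Acadsb, for branched short chains, from 31.6 to 47.9 CPM, with all groups overlapping. Of the 5 dehydrogenases 4 had negative log2 fold changes in LAC responders against FSL vehicle (median -0.26), and the median was -0.06 without FSL vehicle 3.

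The electron transfer flavoprotein takes electrons from these dehydrogenases and passes them by way of Etfdh to the respiratory chain. Etfa, its alpha subunit, had 54.5, 49.9 and 59.0 CPM in responder libraries 1 to 3, 57.5, 55.9 and 47.5 CPM in non-responder, 55.3, 57.3 and 54.6 CPM in FSL vehicle and 44.4, 46.9 and 50.8 CPM in FRL vehicle libraries. FSL vehicle lay above FRL vehicle without overlap, by 0.24 ± 0.10 on the log2 scale (edgeR adjusted p = 0.306). Across the 9 FSL-line libraries the difference from FRL vehicle was 0.21 ± 0.08 (adjusted p = 0.705). Etfb, the beta subunit, had 29.0, 25.4 and 27.8 CPM in responder libraries 1 to 3, 34.0, 30.2 and 31.2 CPM in non-responder, 27.3, 31.7 and 31.5 CPM in FSL vehicle and 31.0, 27.6 and 26.9 CPM in FRL vehicle libraries. Responders lay below non-responders without overlap (-0.22 ± 0.10, adjusted p = 0.992). Etfdh stayed between 40.0 and 50.9 CPM with all groups overlapping.

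The trifunctional protein finishes the rounds of long-chain oxidation. Hadha, its alpha subunit, had 155, 151 and 159 CPM in responder libraries 1 to 3, 160.1, 155 and 153 CPM in non-responder, 152, 162 and 153 CPM in FSL vehicle and 154, 157 and 149.7 CPM in FRL vehicle libraries. The highest library was 1.08 times the lowest, the smallest span among the 36. The 95% interval of its log2 fold change ran over -0.14 to 0.13 in LAC responders against FSL vehicle and over -0.11 to 0.15 in FSL vehicle against FRL vehicle. Hadhb, the beta subunit, ranged from 112 to 147 CPM, and both ends were FSL vehicle libraries.

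Hadh is the dehydrogenase for medium and short 3-hydroxyacyl-CoA. Hadh had 29.5, 37.4 and 28.5 CPM in responder libraries 1 to 3, 32.9, 36.4 and 29.1 CPM in non-responder, 28.9, 39.3 and 38.1 CPM in FSL vehicle and 23.0, 28.0 and 25.2 CPM in FRL vehicle libraries. The 9 FSL-line libraries lay between 28.5 and 39.3 CPM and the FRL vehicle libraries between 23.0 and 28.0 CPM, with a narrow gap. The log2 fold change was 0.48 ± 0.15 in FSL vehicle against FRL vehicle (edgeR adjusted p = 0.253) and 0.39 ± 0.13 in the 9 FSL-line libraries against FRL vehicle (adjusted p = 0.605). The second value ran from 0.33 to 0.47 when each library was left out in turn. Acaa2, the matrix thiolase, ranged from 15.8 to 25.3 CPM with all groups overlapping. Echs1, the short-chain enoyl-CoA hydratase, had 0 or 1 count in every library and was not tested. Whether its reads were lost to the annotation used or to several alignments was not tested, so these counts give no level for the enzyme in this tissue.

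Eci1, Eci2 and Decr1 prepare unsaturated fatty acids for the same rounds by moving or removing their double bonds. Eci1, the mitochondrial enoyl-CoA isomerase, had 13.1, 12.8 and 10.7 CPM in responder libraries 1 to 3, 15.7, 16.6 and 15.7 CPM in non-responder, 14.1, 18.8 and 24.9 CPM in FSL vehicle and 13.4, 12.3 and 14.3 CPM in FRL vehicle libraries. FSL vehicle was spread widely, with FSL vehicle 3 the highest of all libraries. The responders lay below FSL vehicle without overlap, and non-responders stood close together above the responders. The log2 fold change was -0.66 ± 0.18 in LAC responders against FSL vehicle (edgeR adjusted p = 0.266), -0.27 ± 0.18 in non-responders against FSL vehicle (adjusted p = 0.976), -0.39 ± 0.18 in responders against non-responders (adjusted p = 0.992) and 0.54 ± 0.18 in FSL vehicle against FRL vehicle (adjusted p = 0.267).

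Eci1 was the enzyme whose call depended on which FSL vehicle library was used. Without FSL vehicle 1 it passed in LAC responders against FSL vehicle (log2 fold change -0.84, edgeR adjusted p = 0.0277) and in FSL vehicle against FRL vehicle (0.71, adjusted p = 0.0445). Without FSL vehicle 3 the values were -0.44 and 0.32, with adjusted p of 0.907 and 0.785. With the meningeal marker mean as a covariate they were -0.29 and 0.22, from the fit that cannot tell markers and group apart. FSL vehicle 3, the library highest in meningeal markers, was also the highest for Eci1 and for Acadm. The part of these markers in the differences was not tested beyond those values. FSL vehicle 3 was the highest library for 6 of the tested enzymes and the lowest for 7. Over all genes it was the highest for 22.5% and the lowest for 21.1%, so such a place was common. Eci2 ranged from 21.6 to 28.4 CPM and Decr1 from 21.9 to 34.3 CPM, with all groups overlapping.

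**Figure D3:**
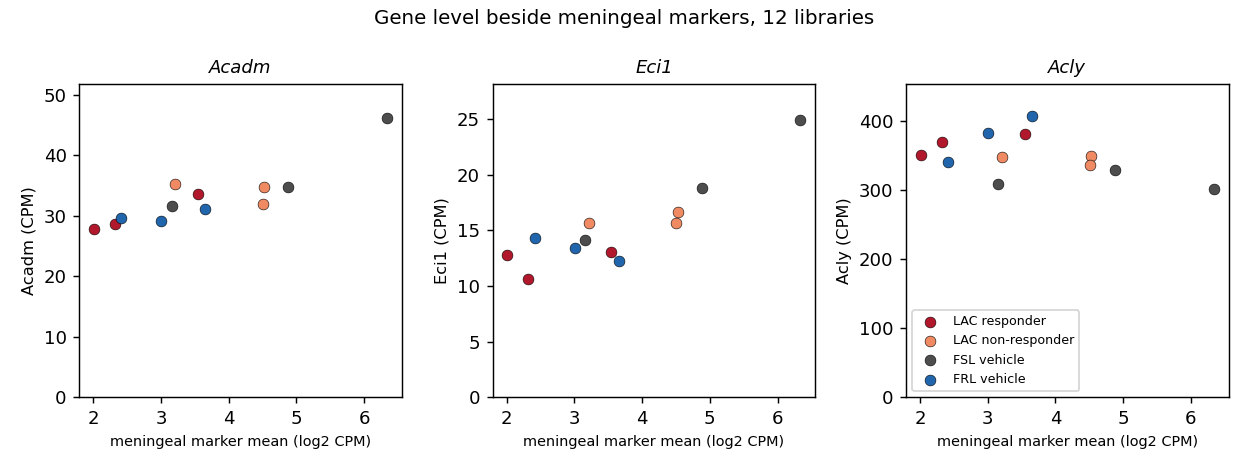
Level of Acadm, Eci1 and Acly in CPM (vertical axes) against the mean of 14 meningeal and fibroblast markers in log2 CPM (horizontal axes), with 1 point a library coloured by group. FSL vehicle 3, at 6.34 log2 CPM of the markers, is the highest point for Acadm (46.2 CPM) and Eci1 (24.9 CPM) and the lowest for Acly (302 CPM).

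**Figure D4:**
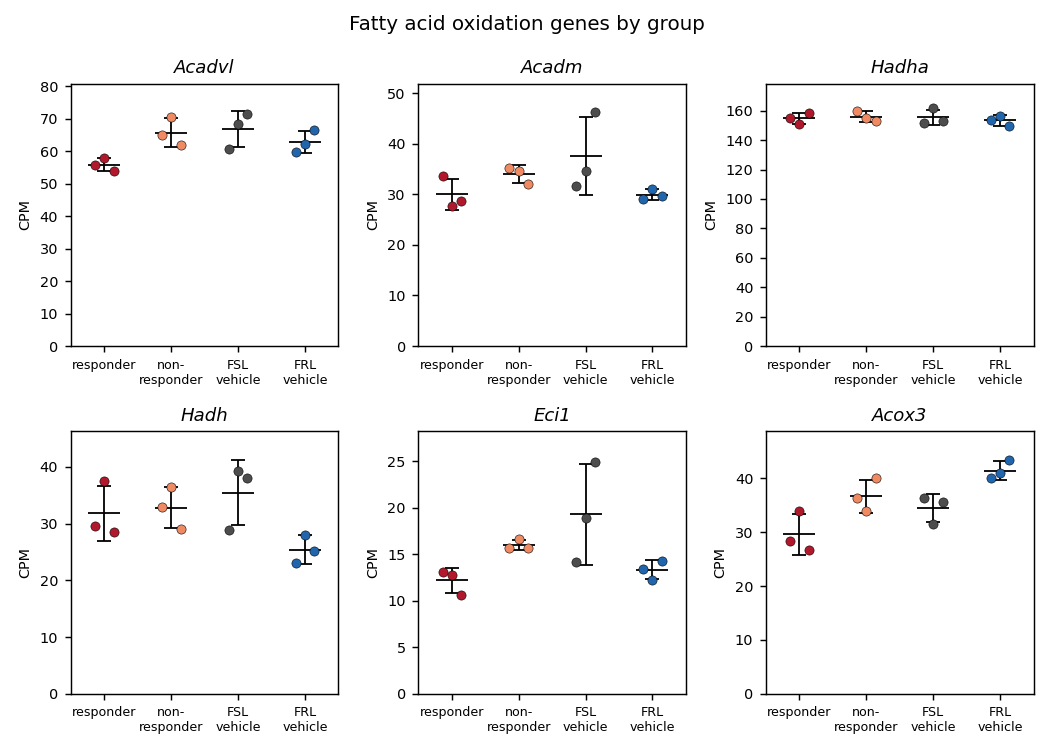
CPM of 6 oxidation genes by group, with 1 point a library, the group mean as a horizontal bar and its SD as whiskers (n = 3 each). Acadvl is lowest in LAC responders, Hadh is lowest and Acox3 highest in FRL vehicle, Eci1 and Acadm are spread in FSL vehicle, and Hadha is level.

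Peroxisomes shorten chains that mitochondria cannot take. Acox3 is the oxidase for branched chains there. Acox3 had 28.3, 34.0 and 26.7 CPM in responder libraries 1 to 3, 36.3, 33.9 and 40.0 CPM in non-responder, 36.4, 31.5 and 35.7 CPM in FSL vehicle and 40.0, 40.9 and 43.4 CPM in FRL vehicle libraries. FRL vehicle lay above all 9 FSL-line libraries, the closest pair nearly touching, and the responders held the lowest 2 values. The log2 fold change was -0.31 ± 0.09 in the 9 FSL-line libraries against FRL vehicle (edgeR adjusted p = 0.479), -0.27 ± 0.11 in FSL vehicle against FRL vehicle (adjusted p = 0.307) and -0.31 ± 0.11 in responders against non-responders (adjusted p = 0.992). Acox3 had the smallest p of the 36 in the test of any difference among the groups (adjusted p = 0.476). In RefSeq, Acox3 overlaps Trmt44, whose own log2 fold change in the 9 FSL-line libraries against FRL vehicle was -0.01 ± 0.12. Trmt44 was at 0.17 ± 0.14 in FSL vehicle against FRL vehicle and at -0.12 ± 0.14 in responders against non-responders. Against FSL vehicle, Trmt44 was at -0.32 ± 0.14 and Acox3 at -0.22 ± 0.11 in LAC responders. In non-responders they were at -0.20 ± 0.14 and 0.09 ± 0.11. Whether reads of Trmt44 entered the counts of Acox3 was not tested. Hsd17b4, the bifunctional enzyme of the next steps, stayed between 87.4 and 109.6 CPM. Acaa1a, the peroxisomal thiolase, lay between 1.71 and 3.96 CPM, from a mean of 18.3 counts, and overlaps Myd88 in RefSeq.

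The regulators overlapped in nearly every comparison. Ppara, the fatty acid receptor that switches on oxidation genes in liver, had 4.90, 5.58 and 6.34 CPM in responder libraries 1 to 3, 6.99, 6.46 and 8.34 CPM in non-responder, 6.01, 6.06 and 10.4 CPM in FSL vehicle and 8.75, 5.20 and 7.84 CPM in FRL vehicle libraries. Responders lay below non-responders (-0.37 ± 0.27, edgeR adjusted p = 0.992), and FSL vehicle 3 was the highest library. Ppargc1a, the coactivator of mitochondrial biogenesis, had 47.3, 60.5 and 59.8 CPM in responder libraries 1 to 3, 53.2, 62.8 and 67.8 CPM in non-responder, 72.1, 43.0 and 58.0 CPM in FSL vehicle and 56.5, 68.3 and 72.7 CPM in FRL vehicle libraries. FSL vehicle held both its lowest value and 1 of its 2 highest. Aldh9a1, which makes the precursor of carnitine, had 61.7, 58.0 and 55.5 CPM in responder libraries 1 to 3, 56.7, 62.6 and 54.1 CPM in non-responder, 61.2, 64.8 and 64.5 CPM in FSL vehicle and 53.9, 58.8 and 54.3 CPM in FRL vehicle libraries. FSL vehicle lay above FRL vehicle without overlap (0.19 ± 0.08, adjusted p = 0.320), and its log2 fold change was -0.13 ± 0.08 in non-responders against FSL vehicle (adjusted p = 0.976).

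Seen by comparison, LAC responders against FSL vehicle had a median log2 fold change of -0.04 over the 36 enzymes and 0.01 over all genes, with 11 of the 36 positive (30.6%, against 52% of all genes). The 6 enzymes with an unadjusted p under 0.05 were Acat2, Acly and Acss2 on the higher side (4.61% of all genes) and Acadm, Acadvl and Eci1 on the lower side (9.17%). The groups did not overlap for Acaca, Acat2 and Acly on the higher side (6.37%) and for Acadvl and Eci1 on the lower side (6.14%). By role, medians were 0.23 for acetyl-CoA producers, -0.26 for acyl-CoA dehydrogenases, -0.13 for the electron transfer flavoprotein genes and -0.18 for peroxisomal enzymes. Medians over further pathway genes, described below, were -0.03 for other dehydrogenases and matrix enzymes, -0.01 for peroxisomal oxidation and -0.097 for the carnitine shuttle. For acetyl-CoA from pyruvate and citrate the median was 0.11, for fatty acid synthesis 0.08 and for acyl-CoA synthetases, thioesterases and fatty acid carriers 0.09. It was 0.01 for ketone bodies and -0.005 for transcriptional regulators. In LAC non-responders against FSL vehicle the median was -0.01 over the enzymes, with 17 of 36 positive (47.2%, against 48.9% of all genes). Acss2 was the 1 enzyme with an unadjusted p under 0.05 there, on the higher side (1.89% of all genes), and 0 enzymes had one on the lower side (2.32%). The groups did not overlap for Acaca, Acly and Acss2 on the higher side (4.68%) and for Bdh1 on the lower side (3.11%). Without FSL vehicle 3 the non-responder median was 0.04, with 22 of 36 positive.

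Responders against non-responders asked which genes go with the response among treated rats, and the enzymes had a median log2 fold change of -0.04 with 13 of 36 positive (36.1%, against 50.3% of all genes). The 2 with an unadjusted p under 0.05 were Acadvl and Acox3, both on the lower side (1.96% of all genes), with 0 on the higher side (1.18%). All 5 dehydrogenases and all 3 peroxisomal enzymes were on the lower side, with medians of -0.18 and -0.31. Of the further pathway genes described below, 5 of 10 for peroxisomal oxidation were positive (median -0.01). So were 8 of 17 for other dehydrogenases and matrix enzymes (median -0.0009) and 3 of 9 for the carnitine shuttle (median -0.04). Responders and non-responders did not overlap for Acat2 and Acly on the higher side (5.76%) and for Acadvl, Eci1, Etfb and Ppara on the lower side (5.54%). Meningeal markers ran the same way in this comparison, with 0 of the 12 tested markers positive and a median of -1.72. Their part in the enzyme values was not tested here beyond the covariate fit, in which the median of the enzymes was -0.08. Choroid plexus markers (0 of 9 positive, median -5.31), oligodendrocyte markers (0 of 10, -0.14) and endothelial and pericyte markers (1 of 9, -0.34) ran that way too. All 7 tested GABAergic interneuron markers were positive (median 0.15). What part these further lists had was not tested beyond the choroid plexus covariate fit.

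FSL vehicle against FRL vehicle, the comparison of untreated lines, had a median log2 fold change of 0.05 over the enzymes and -0.01 over all genes, with 21 of 36 positive (58.3%, against 48.4%). The 11 enzymes with an unadjusted p under 0.05 were Acadm, Acat1, Aldh9a1, Eci1, Etfa and Hadh on the higher side (9.35% of all genes) and Acaca, Acat2, Acly, Acox3 and Acss2 on the lower side (4.53%). The groups did not overlap for Acadm, Acat1, Aldh9a1, Etfa and Hadh on the higher side (7.57%) and for Acaca, Acly, Acox3, Acss2 and Bdh1 on the lower side (6.23%). With the meningeal covariate 4 enzymes had an unadjusted p under 0.05 in this comparison, with 593 of all genes (1631 without it), and 2 had one in LAC responders against FSL vehicle, with 631 of all genes (1619 without it). As the covariate varied with group, a lower count can come from what they share, and no cause is read from it. All 12 tested meningeal markers were higher in FSL vehicle (median 2.49), and all 12 were lower in LAC responders against FSL vehicle (median -2.86), with 0 of them past the adjusted threshold. In FSL vehicle against FRL vehicle, all 10 microglia markers (median 0.46) and all 9 endothelial and pericyte markers tested (median 0.71) were positive too. So were all 9 choroid plexus markers tested (median 5.34). Of the GABAergic interneuron markers 0 of 7 were positive, and 0 markers of these lists passed. The endothelial and pericyte markers were all negative in LAC responders against FSL vehicle (median -0.72). The part of these lists in the enzyme values was not tested beyond the choroid plexus covariate fit. Over all 9 FSL-line libraries against FRL vehicle the median of the enzymes was 0.01 with 20 of 36 positive (55.6%, against 49.9% of all genes). The 6 enzymes with an unadjusted p under 0.05 were Acat1, Etfa and Hadh on the higher side (3.8%) and Acly, Acox3 and Bdh1 on the lower side (2.86%). Hadh was the 1 enzyme without overlap on the higher side (1.09%) and Acox3 the 1 on the lower side (0.851%).

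**Figure D5:**
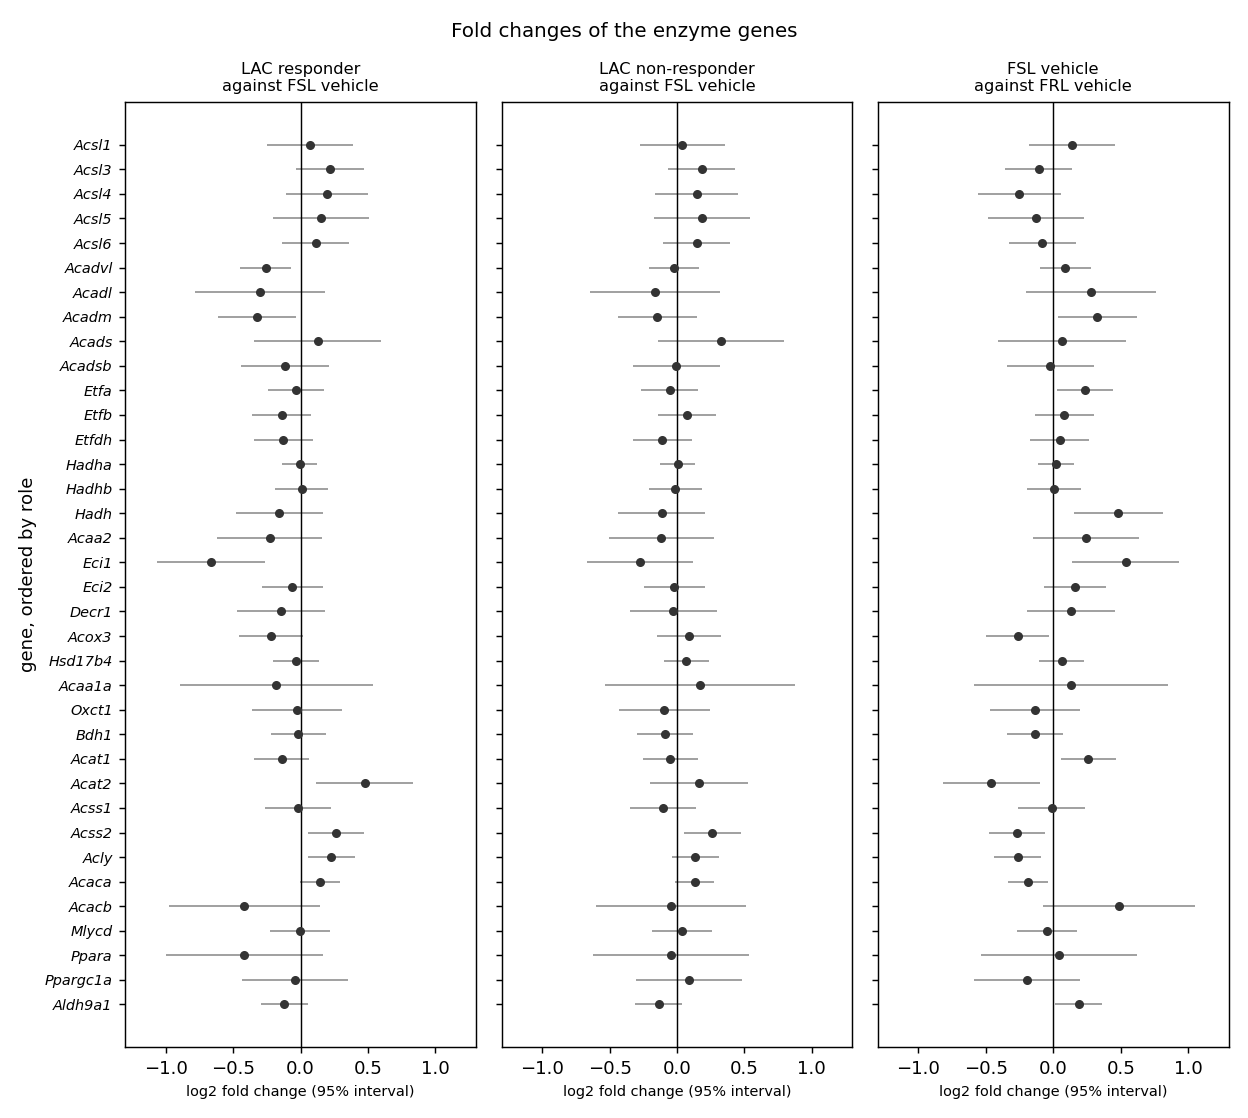
Log2 fold change (points) with its 95% interval (lines) of the 36 tested enzyme genes, ordered by role, in LAC responders against FSL vehicle, LAC non-responders against FSL vehicle and FSL vehicle against FRL vehicle, from edgeR's quasi-likelihood fit of all 12 libraries. Acat2, Acss2 and Acly lie right of 0 in the first panel and left of 0 in the third, and Eci1 and Acadm the other way, with the 3 FSL vehicle libraries shared by all panels.

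Genes of the wider pathway were tested in the same fit. Of 117 further genes listed for the carnitine shuttle, other matrix and peroxisomal enzymes, ketone bodies, pyruvate and citrate, fatty acid carriers, fatty acid synthesis and their regulators, 110 were in the files and 101 were tested. None of the 101 passed edgeR's adjusted threshold in any comparison. With an unadjusted p under 0.05 there were 17 in LAC responders against FSL vehicle (16.8%), 8 in non-responders against FSL vehicle (7.92%), 4 in responders against non-responders (3.96%) and 19 in FSL vehicle against FRL vehicle (18.8%), where the shares over all genes given above were 13.8%, 4.21%, 3.14% and 13.9%. All 8 of the non-responder genes were on the higher side. By the rule for named genes, the 2 of smallest p in each comparison follow.

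Acss3, a mitochondrial enzyme for propionate, had 5.27, 5.45 and 4.72 CPM in responder libraries 1 to 3, 8.58, 9.76 and 7.63 CPM in non-responder, 6.98, 9.67 and 24.6 CPM in FSL vehicle and 7.85, 6.40 and 6.30 CPM in FRL vehicle libraries. FSL vehicle 3 stood far above the rest, and the log2 fold change was -1.42 ± 0.38 in LAC responders against FSL vehicle (edgeR adjusted p = 0.266). Auh, the hydratase of leucine breakdown, had 78.5, 81.8 and 77.6 CPM in responder libraries 1 to 3, 75.1, 79.3 and 80.1 CPM in non-responder, 70.9, 68.1 and 61.5 CPM in FSL vehicle and 72.8, 81.3 and 75.1 CPM in FRL vehicle libraries. Its FSL vehicle libraries lay below all others, and the log2 fold change was 0.25 ± 0.08 in LAC responders against FSL vehicle (adjusted p = 0.266). Scd, the desaturase that makes oleate and a main lipogenic gene, had 4090.4, 4150.2 and 3995 CPM in responder libraries 1 to 3, 3922, 4579 and 4061 CPM in non-responder, 3746, 3342 and 2964 CPM in FSL vehicle and 3979, 3828 and 3791 CPM in FRL vehicle libraries. Scd was lower in FSL vehicle than in every other library, with log2 fold changes of 0.32 ± 0.10 in non-responders (adjusted p = 0.976) and 0.28 ± 0.10 in LAC responders against FSL vehicle. Echdc1, which removes ethylmalonyl-CoA, was likewise lowest in the 3 FSL vehicle libraries, with 0.27 ± 0.08 in non-responders against FSL vehicle (adjusted p = 0.976).

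Srebf2, the factor that switches on sterol synthesis genes, had 292, 322 and 338 CPM in responder libraries 1 to 3, 355, 327 and 345 CPM in non-responder, 334, 277 and 325 CPM in FSL vehicle and 399, 409 and 403 CPM in FRL vehicle libraries. FRL vehicle lay above all 9 FSL-line libraries, and the log2 fold change was -0.32 ± 0.07 in the FSL-line libraries (edgeR adjusted p = 0.200) and -0.37 ± 0.09 in FSL vehicle against FRL vehicle (adjusted p = 0.195). Nrip1, a corepressor of metabolic genes, was -0.22 ± 0.06 in FSL vehicle against FRL vehicle (adjusted p = 0.251). Slc27a1, a fatty acid transport protein, was -0.23 ± 0.07 in the FSL-line libraries against FRL vehicle (adjusted p = 0.605). Gabpa, a factor for mitochondrial genes, was -0.23 ± 0.07 and Prkaa2, a catalytic subunit of AMP-activated kinase, -0.32 ± 0.12 in responders against non-responders (adjusted p = 0.992 and 0.992).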

How the data were processed

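RNA sequencing of 12 ventral dentate gyrus libraries was used, 3 a group. Per the labels' protocols, RNA from about 130 mg of tissue was made into stranded, rRNA-depleted libraries and read as 100 bp single reads. The deposited files hold raw read counts per gene symbol for 17172 genes and 5 summary lines, not normalized. Named in the submitters' processing notes are edgeR 3.12.0, HTSeq 0.6.1, TopHat2 2.0.9, Trimmomatic 0.33, FastQC 0.11.3 and the rn5 build; settings, annotation and strand handling of the counting are not in the sources used here. The summary lines, left out of library sizes and tests, held 47.7% to 52.7% (no gene), 0.0756% to 0.106% (ambiguous) and 24.3% to 28.4% (several alignments) of the reads.

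From the counts, edgeR 4.0.16 (R 4.3.3) was run with TMM factors (0.975 to 1.04), its default filter by group and the robust quasi-likelihood method, fitting the 12 libraries together with a mean for each group (two-sided), with Benjamini-Hochberg adjustment over 11750 genes at 0.05. The common biological coefficient of variation was 0.178. The standard error (SE) is the log2 fold change over the root of F, and 95% intervals use the fit's degrees of freedom. The script was tested on simulated data. Alternatives were RLE and no scaling, 2 other filters, DESeq2 1.42.0, limma-voom (limma 3.58.1), fits of the compared groups only, a replicate block, a meningeal and a choroid plexus covariate, and each library left out. Libraries of 1 group differed beyond sampling noise (chi-square per gene 5.54 to 28.3), so each counted once.

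Same-numbered FSL vehicle and non-responder libraries deviated together (correlations of 0.581, 0.212 and 0.426). These groups and no others met the rule used here for pairing, a correlation over 0.1 for each number. The labels name no pairing, and the main fit uses none. Non-responder 1 and FSL vehicle 1, the pair at 0.581, were also highest in choroid plexus markers (6.51 and 5.91 log2 CPM). The source of the correlations was not tested. The members, gene lists and tests were chosen with earlier results of these data known. Values by library are given for the 4 enzymes of smallest p in each comparison and for 13 genes picked for their role, and for further pathway genes the 2 of smallest p in each comparison are named. RefSeq tables of GRCr8 gave promoter sequences and neighbouring genes.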

Additional observations from a re-analysis of the deposited data

How the results depend on the processing

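The count of enzymes called stayed at 0 in most alternatives. It was 1 in FSL vehicle against FRL vehicle with DESeq2 (Acly), and 1 in that comparison and in LAC responders against FSL vehicle without FSL vehicle 1 together with non-responder 1, the 2 libraries highest in choroid plexus markers (Eci1, 0.73 and -0.86, adjusted p = 0.0460 and 0.0250). Leaving out each library gave 0 to 1 in both, the 1 being Eci1 without FSL vehicle 1, where calls over all genes were 271 in FSL vehicle against FRL vehicle (8 with all libraries) and 349 in LAC responders against FSL vehicle (0 with all). Over all genes DESeq2 called 168 and 181 there, and 417 and 445 were called without the 2 high choroid plexus libraries. Without scaling factors the median log2 fold change of all genes was -0.031 in responders and -0.039 in non-responders against FSL vehicle. It was 0.044 in FSL vehicle against FRL vehicle. Medians of the enzymes were -0.080, -0.043 and 0.099 in the same comparisons and order. With the meningeal covariate they were -0.079 in responders against FSL vehicle and -0.076 against non-responders, and with the choroid plexus covariate -0.073 in responders against FSL vehicle. Without the 2 high choroid plexus libraries they were -0.080 in responders and -0.038 in non-responders against FSL vehicle, and without the 2 libraries low in granule neuron markers (responder 1 and FRL vehicle 2) -0.0038 in FSL vehicle against FRL vehicle. With each library left out, medians ran from -0.094 to -0.023 in responders and from -0.030 to 0.044 in non-responders against FSL vehicle, from -0.07 to -0.01 in responders against non-responders, from -0.0035 to 0.092 in FSL vehicle against FRL vehicle and from -0.0013 to 0.053 in the FSL-line libraries against FRL vehicle. Enzymes with an unadjusted p under 0.05 then numbered 3 (without responder 3) to 11 (without FSL vehicle 2) in responders against FSL vehicle (637 to 2986 of all genes), 0 (without non-responder 1) to 4 (without FSL vehicle 1) in non-responders against FSL vehicle (320 to 1188), 0 (without responder 3) to 3 in responders against non-responders (269 to 456), 7 to 11 in FSL vehicle against FRL vehicle (744 to 2569) and 2 (without FRL vehicle 2) to 9 in the FSL-line libraries against FRL vehicle (452 to 1119).

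In responders against non-responders Acss2 changed sign, at -0.0078 without scaling factors, -0.0064 with limma-voom, -0.0083 in the compared groups only, -0.0039 with the replicate block, -0.081 with the meningeal covariate and -0.096 to 0.098 with each library left out. Acaca then ran from -0.020 to 0.040, and Acat2 in non-responders against FSL vehicle was -0.061 without the 2 high choroid plexus libraries. The causes were not tested. The replicate block called 0 enzymes and changed no call, and restricted to non-responders and FSL vehicle, the groups that met the rule for pairing, it also called 0. That fit and those without marker-chosen libraries were added after seeing the data. With 3 libraries a group, the median interval reached 0.25 either way on the log2 scale.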
